A study of Mus musculus with 30 samples.

Results

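Ageing of the normal glomerulus from 8 to 16 weeks was followed in 8 arrays, 4 of wild-type mice aged 16 weeks and 4 of wild-type mice aged 8 weeks, chosen by genotype and age in the sample titles from the 30 arrays of the series. All mice were females of the BTBR strain, an inbred background on which the ob mutation of leptin gives obesity and diabetes; the wild-type animals carry no ob mutation by their label. Glomeruli were taken from 4, 8, 16 and 24 week old wild-type and ob/ob mice by pressing kidneys through steel sieves of falling mesh size, and the RNA of each animal was put on its own Affymetrix array. The 4 and 24 week wild-type arrays entered only the estimate of the residual spread, so 15 arrays were fitted, and 24099 genes were tested. Differences are given as 16 minus 8 weeks in log2 units as deposited, with the standard error after ±. Replicates are separate animals, and the labels do not say whether they were littermates.

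The glomerulus filters plasma through fenestrated endothelium, a shared basement membrane and the foot processes of podocytes, with mesangial cells as support. Tubule epithelium lies next to it in the cortex, and fragments of it can be carried along in glomeruli isolated by sieving. Proximal tubule cells take filtered protein back up through megalin and cubilin, and the kidney, like other organs, runs a circadian clock that sets the daily level of many of its transcripts.

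Podocyte markers were well measured in all 8 arrays: the nephrin gene Nphs1 ran from 9.83 to 12.26 and Podxl, which codes for podocalyxin, from 15.09 to 17.11. Tubule markers were present as well, with Umod of the thick ascending limb between 19.33 and 19.60, near the top of the scale. In bulk RNA, fewer cells of a type and less RNA per cell cannot be told apart. Between pairs of the 8 arrays Pearson's r across genes was 0.984 to 0.996, a description in which genes are not replicates. The separation of exon from intron control probe sets, a measure of array quality, was 0.846 ± 0.016 at 8 weeks and 0.855 ± 0.016 at 16 weeks (SD, n = 4 each; two-sided exact permutation p = 0.514, adjusted 0.686 over 4 array measures). Between 1.2% and 1.4% of the values of each of the 8 arrays lay above 16, beyond the reach of a 16-bit scanner. The deposited scale is therefore stretched, in a way the labels do not describe, and no difference is read as a linear fold. The number of arrays limits the precision, and the median standard error was 0.128 log2 units. The intron control medians of the 8 arrays were 6.04 to 6.18, and signals near or below that level are uncertain. Among the genes below, this holds for Lgr5, Atp8b4, Igf2, Itgam, Adgre1, Jchain and the immunoglobulin segments. It also holds for the 8-week values of Cps1, Fgg, Per3, Ahsg and the liver list mean. The lymphocyte list, with means of 5.51 at 8 weeks and 5.73 at 16 weeks, lies there too. Other values at that level are to be read in the same way.

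Of 24099 genes, 5 passed an adjusted p of 0.05 between the ages (0.0207%), with Cubn, Apob and the small nucleolar RNA gene Gm24920 higher at 16 weeks (0.0124%) and Cdkn1a and Zfp691 lower (0.0083%). An unadjusted p under 0.05 was found for 1742 genes (7.23%), 928 with the higher mean at 16 weeks (3.85%) and 814 with the lower (3.38%). The arrays of the ages did not overlap, all 4 of one age lying above all 4 of the other, in 880 genes (3.65%). The 16-week arrays were above in 431 of them (1.79%) and below in 449 (1.86%). The median difference over all genes was -0.0038 log2 units, and 48.7% of genes had a difference above 0.

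The count of 5 depended on single arrays. It went to 0 when 8-week replicate 1, 2 or 4 or 16-week replicate 1, 3 or 4 was left out, and to 3 without 8-week replicate 3, with Zfp691 as the 1 gene of the 5 that remained. Without 16-week replicate 2 it rose to 91. Each array was left out in turn, but this array drew attention only after its values were seen. Calls made without it, here and below, describe the remaining arrays and are not separate support for a difference between the ages. With the 8 arrays alone in the fit no gene passed, although 1645 had an unadjusted p under 0.05 by the same limma test, and with array quality weights 1185 genes passed.

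Cubn, which codes for cubilin, the receptor that binds albumin, transferrin and vitamin carriers at the proximal tubule brush border, rose. Its signal was 15.32, 15.20, 14.98 and 15.21 in 8-week replicates 1 to 4, and 16.07, 15.80, 16.19 and 15.98 in 16-week replicates 1 to 4. The lowest 16-week array thus lay above the highest 8-week array. The difference was 0.83 ± 0.11 (adjusted p = 0.0312), and the mean was 15.62 at 4 weeks and 15.85 at 24 weeks, so that the 8-week arrays were the low point of the 4 ages. Lrp2, the gene of megalin, the partner of cubilin in the same endocytic complex, had 17.23, 17.01, 17.26 and 17.19 at 8 weeks against 17.81, 17.76, 18.00 and 17.67 at 16 weeks. Its arrays did not overlap either, but its difference of 0.64 ± 0.11 did not pass (adjusted p = 0.107). Of 23 proximal tubule genes tested, Cubn alone passed; 13 had a difference above 0 and the median was 0.06, against -0.0038 over all genes. When 16-week replicate 2 was left out, the median was 0.12 and Cubn, Lrp2 and Slc6a19 passed as higher, where 0.237% of all genes did. The mean signal of that list was 15.80 ± 0.31 at 8 weeks and 15.89 ± 0.30 at 16 weeks (SD, n = 4 each).

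Apob, the gene of apolipoprotein B, the structural protein of very low density lipoproteins and chylomicrons, had the largest of the 3 rises. At 8 weeks the arrays gave 8.80, 9.18, 8.73 and 7.92, and at 16 weeks 10.98, 10.95, 11.36 and 11.51. All 4 older animals were far above all 4 younger ones, and the spread within an age was small beside the gap. The difference was 2.54 ± 0.36 (adjusted p = 0.0320). The means at the outer ages continued the order, with 7.76 at 4 weeks and 11.84 at 24 weeks, where the arrays ran from 10.86 to 12.34. In ob/ob mice the mean was 11.32 at 8 weeks and 13.89 at 16 weeks.

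Cdkn1a, which codes for the cyclin-dependent kinase inhibitor p21, fell. The 8-week values were 10.12, 11.14, 11.39 and 10.61 and the 16-week values 7.39, 8.91, 7.22 and 7.91. The groups were apart, and 16-week replicate 2 was the closest to the younger mice. The difference was -2.96 ± 0.40 (adjusted p = 0.0312). The 24-week mean was 8.99 and the 4-week mean 9.36, so the 8-week arrays were the highest and the 16-week arrays the lowest of the wild-type ages.

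Several other genes that glucocorticoids are known to induce had lower signal at 16 weeks without passing the test, and Cdkn1a itself stands in that list. Fkbp5, a co-chaperone of the glucocorticoid receptor, gave 8.24, 9.28, 8.18 and 8.72 at 8 weeks and 7.83, 7.0, 7.24 and 7.97 at 16 weeks, with no overlap (-1.10 ± 0.27, adjusted p = 0.265). Sgk1, a kinase that raises sodium transport, gave 10.96, 11.22, 10.56 and 10.86 against 9.59, 10.53, 9.82 and 10.30, again with no overlap (-0.84 ± 0.24, adjusted p = 0.394). The transcription factor gene Zbtb16 overlapped between the ages, with means of 8.89 and 7.29 (adjusted p = 0.50). Of 16 genes of the glucocorticoid and androgen list, Cdkn1a alone passed, 9 had a difference below 0, and the median was -0.05 (0.07 without 16-week replicate 2). At an unadjusted p under 0.05, 5 were lower and 2 higher (3.38% and 3.85% of all genes), and 3 had no overlap, all lower at 16 weeks (1.86% of all genes). The 2 higher were Tat (0.66 ± 0.20), also a member of the liver list described below, and Nr3c1 (0.37 ± 0.13). Klf9 differed little (-0.09 ± 0.23), so the list did not move as one. The list mean was 9.68 ± 0.21 at 8 weeks and 9.30 ± 0.29 at 16 weeks (SD, n = 4 each), with 8.88 in 16-week replicate 2.

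Zfp691, which codes for a zinc finger protein, had 9.40, 9.80, 9.25 and 9.46 at 8 weeks and 8.23, 8.42, 8.21 and 8.53 at 16 weeks. It fell by 1.13 log2 units, with a standard error of 0.16 (adjusted p = 0.0312). Gm24920 read 9.44, 9.17, 9.20 and 9.63 at 8 weeks and 11.05, 10.19, 10.53 and 10.42 at 16 weeks, a rise of 1.19 ± 0.18 (adjusted p = 0.0414). Neither gene had any array out of place. Small nucleolar RNAs come from families of similar copies, so that probe sets may read more than 1 of them. Over 60 named Snord and Snora genes, a group formed after the values were seen, none passed, 43 had a difference above 0, and the median was 0.20. The median was 0.44, and 4 passed as higher, without 16-week replicate 2, where 0.237% of all genes did.

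**Figure D1:**
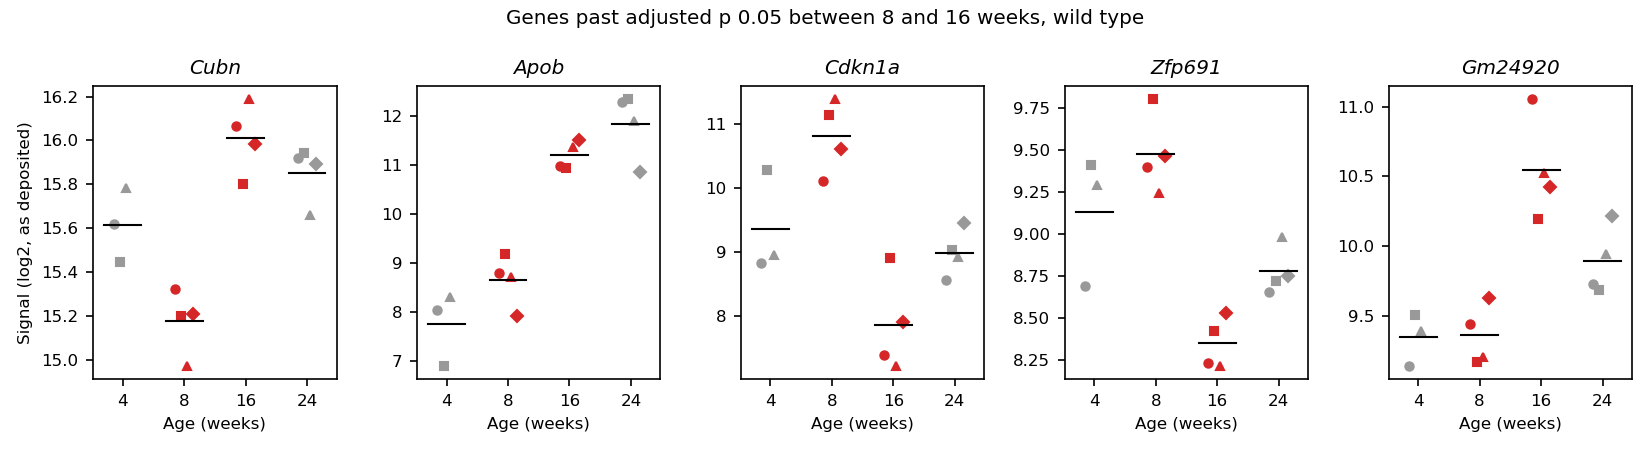
Signal (log2, as deposited) of the 5 genes past the threshold in each wild-type array, by age in weeks; red points are the 8 arrays compared, grey points the 4 and 24 week arrays, point shapes the replicate numbers and black lines the means. In each panel the 8 and 16 week points do not overlap, and Apob has its highest mean at 24 weeks (11.84).

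The next genes by p did not pass and are given as values. Among those with higher signal at 16 weeks, the aldo-keto reductase gene Akr1c20 read 7.32, 7.20, 7.04 and 7.49 at 8 weeks and 8.45, 8.31, 9.10 and 9.29 at 16 weeks (1.52 ± 0.24, adjusted p = 0.0605). Lgr5, a receptor for R-spondins, ran from 5.99 to 6.21 at 8 weeks and from 6.47 to 6.65 at 16 weeks (0.47 ± 0.08, adjusted p = 0.0772). Both had means at 24 weeks close to those at 16 weeks, 9.19 and 6.62. The matrix protein gene Svep1 (0.64 ± 0.12, adjusted p = 0.114), the growth factor gene Hgf (0.53 ± 0.10, adjusted p = 0.175), Vps13c (0.46 ± 0.10) and Atp8b4 (0.33 ± 0.07) also had no overlap between the ages. Fbln5, which codes for the elastic fibre protein fibulin-5, had 12.16, 11.87, 12.09 and 12.79 at 8 weeks and 13.42, 12.76, 13.52 and 13.17 at 16 weeks. Its 16-week replicate 2 lay just under 8-week replicate 4, and the difference was 0.99 ± 0.20 (adjusted p = 0.211).

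On the lower side, Itgb6, the beta 6 integrin subunit that activates transforming growth factor beta, read 13.09, 12.89, 12.62 and 12.78 at 8 weeks and 11.54, 12.12, 11.35 and 10.74 at 16 weeks (-1.41 ± 0.24, adjusted p = 0.0964). Ndrg1, a gene induced by hypoxia, read 18.61, 18.60, 18.34 and 18.47 against 16.68, 18.13, 16.65 and 17.06 (-1.37 ± 0.24, adjusted p = 0.0978). In Ndrg1, 16-week replicate 2 sat close to the younger animals while the other 3 were well below them. Acnat2, a peroxisomal acyltransferase gene, read 16.03, 16.26, 14.60 and 15.84 against 14.21, 14.17, 13.75 and 13.93 (-1.67 ± 0.30, adjusted p = 0.108), and here 8-week replicate 3 was the lowest of its age. It passed without 8-week replicate 3. The vasopressin receptor gene Avpr1a (-1.15 ± 0.24), the stress kinase gene Map3k5 (-0.71 ± 0.15), the mitochondrial carrier gene Slc25a30 (-0.94 ± 0.20), Atxn2 (-0.41 ± 0.08), Rad51c (-0.45 ± 0.09) and Mif4gd (-0.57 ± 0.12) had no overlap between the ages either, with adjusted p from 0.175 to 0.211.

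Genes of the circadian clock divided the 16-week arrays. In the core loop of the clock, Arntl (BMAL1) pairs with Clock or Npas2 and drives the Per and Cry genes, Nr1d1, Nr1d2, Dbp and Tef through E-boxes. The nuclear receptors REV-ERB alpha and beta, made by Nr1d1 and Nr1d2, repress Arntl, Npas2, Clock and Nfil3 through ROR elements, and Dbp, Tef and Nfil3 act on D-boxes. Of 32851 RefSeq promoters (250 bases before each annotated start, mouse build GRCm38.p6), 6.02% hold the E-box CACGTG, 2.06% the D-box TTANGTAA or its other strand TTACNTAA, and 2.23% the ROR core TAGGTCA or its other strand TGACCTA. Among the 16 clock genes with an entry, the E-box was found for Bhlhe41, Cry1, Per1 and Tef, the D-box for Per3 and the ROR core for Nfil3. A match is a description and not a bound site. Of the E-box genes, Bhlhe41 (0.96) and Tef (1.15) were higher at 16 weeks and Cry1 (-0.97) and Per1 (-1.11) lower. Per3, with the D-box, was higher (1.71), and Nfil3, with the ROR core, was lower (-0.86). None of these differences passed, and a link between motif and direction was not tested. The windows of Nr1d1, Nr1d2, Dbp, Arntl, Npas2 and Clock held no match. The promoters of Bhlhe41 (chr6:145865421-145865670, minus strand), Per3 (chr4:151044666-151044915, minus strand) and Nfil3 (chr13:52981040-52981289, minus strand) are shown as examples of each motif. Capitals mark the match, read 5′ to 3′ on the gene's strand.
Bhlhe41 promoter: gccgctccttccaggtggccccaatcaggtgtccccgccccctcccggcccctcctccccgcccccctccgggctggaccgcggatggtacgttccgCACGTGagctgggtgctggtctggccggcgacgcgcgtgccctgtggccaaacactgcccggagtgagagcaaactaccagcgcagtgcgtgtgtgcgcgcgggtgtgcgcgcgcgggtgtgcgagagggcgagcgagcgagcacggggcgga
Per3 promoter: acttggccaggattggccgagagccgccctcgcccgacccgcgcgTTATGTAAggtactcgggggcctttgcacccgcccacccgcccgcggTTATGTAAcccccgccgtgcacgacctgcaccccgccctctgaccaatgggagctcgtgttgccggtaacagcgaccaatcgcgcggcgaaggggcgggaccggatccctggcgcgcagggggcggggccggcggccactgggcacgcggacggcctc
Nfil3 promoter: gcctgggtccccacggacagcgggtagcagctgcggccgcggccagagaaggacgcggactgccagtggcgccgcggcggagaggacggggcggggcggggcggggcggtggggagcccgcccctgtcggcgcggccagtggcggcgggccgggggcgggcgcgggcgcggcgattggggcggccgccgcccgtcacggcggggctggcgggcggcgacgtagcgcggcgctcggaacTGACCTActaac
The E-box of Bhlhe41 begins at position -153, counted back from the start. The D-box occurs at 2 places in Per3, from positions -205 and -158, and the ROR core of Nfil3 begins at position -12, on the other strand. The D-box and E-box letters searched do not overlap in these windows.

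On the activator side of the loop, Arntl read 11.30, 11.47, 10.70 and 11.20 in the 8-week arrays and 6.90, 11.23, 6.62 and 6.58 in 16-week replicates 1 to 4. Npas2 read 10.85, 10.96, 10.25 and 10.62 against 6.95, 10.83, 6.80 and 6.57, and Clock 13.53, 13.52, 13.32 and 13.51 against 12.47, 13.52, 12.43 and 12.46. In each, 16-week replicates 1, 3 and 4 were low and replicate 2 lay among the 8-week arrays. With all arrays the differences of the 3 genes, -3.34 ± 0.75, -2.88 ± 0.76 and -0.75 ± 0.20, did not pass (adjusted p = 0.211, 0.309 and 0.309). Without 16-week replicate 2 they were -4.47, -3.90 and -1.02, and all 3 passed (adjusted p = 3.8e-08, 0.00086 and 0.00038). The array left out is the one that went against the difference, so its removal also lowers the residual spread. For Arntl the standard error went from 0.75 to 0.18. These p values therefore describe the arrays that were kept.

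The repressor and output genes had the opposite pattern. Nr1d1 read 6.29, 6.43, 8.18 and 6.56 at 8 weeks and 11.68, 7.92, 11.73 and 11.49 at 16 weeks, and Nr1d2 read 8.37, 9.03, 9.59 and 8.66 against 12.71, 9.02, 13.09 and 13.03. Dbp, an output transcription factor, read 6.79, 7.12, 6.52 and 7.16 against 11.29, 6.71, 12.57 and 11.39. Again 16-week replicate 2 fell in the range of the younger mice. The differences were 3.84 ± 0.74 for Nr1d1, 3.05 ± 0.67 for Nr1d2 and 3.59 ± 0.86 for Dbp (adjusted p = 0.167, 0.211 and 0.242). Per3 had 5.97, 6.10, 5.76 and 6.14 against 8.16, 5.87, 8.45 and 8.33, and Tef had 7.89, 8.15, 7.57 and 8.03 against 9.45, 7.44, 9.58 and 9.75. Bhlhe41, a repressor of the same loop, had 6.69, 6.83, 6.41 and 6.63 against 7.79, 6.42, 8.20 and 7.99. The same 3 older animals were high in all 3 genes.

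Nfil3, whose product opposes Dbp at D-boxes, was the only clock gene without overlap: 7.35, 7.55, 7.18 and 7.37 at 8 weeks, and 6.14, 7.10, 6.35 and 6.41 at 16 weeks (-0.86 ± 0.18, adjusted p = 0.211). Cry1 averaged 8.08 and 7.11 with overlap (adjusted p = 0.496). Other loop members were less divided, with Per1 at 9.50 and 8.39, Per2 at 8.73 and 8.47 and Cry2 at 7.06 and 7.48 on average (unadjusted p = 0.0933, 0.628 and 0.125). In Per1, Per2, Usp2 and Wee1, 16-week replicate 2 was the lowest of all 8 arrays. Of 19 clock genes tested none passed with all arrays, while 6 were higher and 5 lower at an unadjusted p under 0.05 (background 3.85% and 3.38%). Without 16-week replicate 2, 6 were higher and 4 lower at an adjusted p of 0.05, where 0.237% and 0.141% of all genes were. The time of day at tissue collection is not given in the sources used here.

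**Figure D2:**
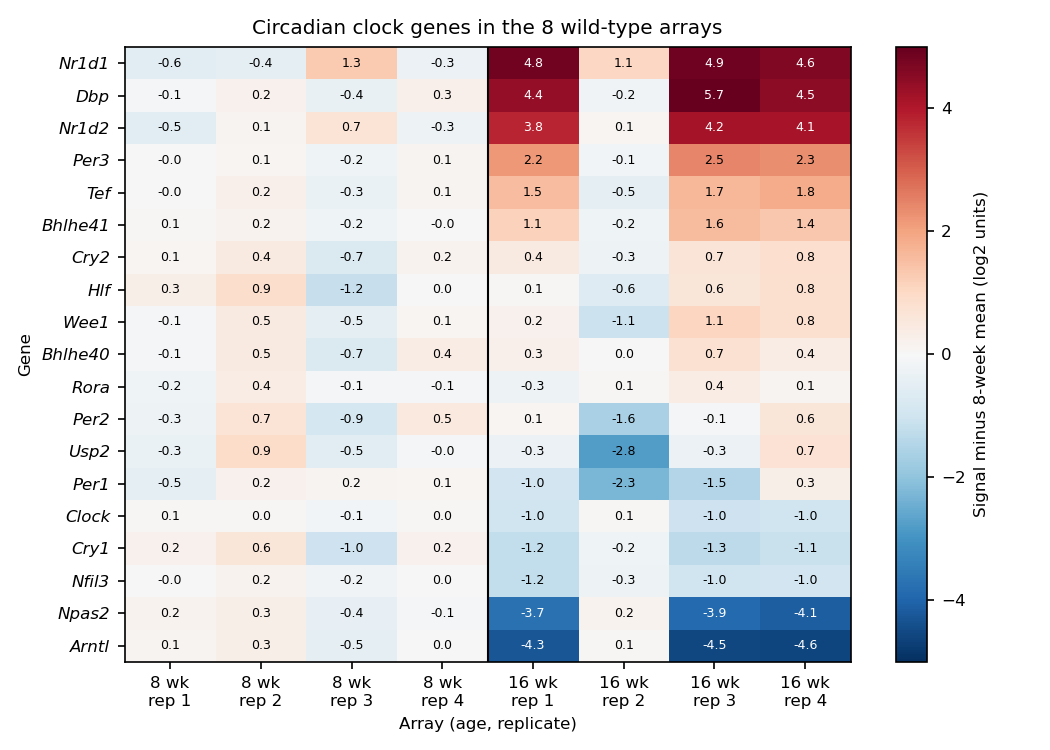
Signal of the 19 clock genes in each of the 8 arrays (columns, by age and replicate) minus the gene's 8-week mean, in log2 units; red is above and blue below that mean, and genes with a mean difference above 0 stand above those with one below 0. 16-week replicates 1, 3 and 4 differ from all 8-week arrays in Nr1d1, Dbp, Nr1d2, Npas2 and Arntl, while 16-week replicate 2 stays near 0 in Arntl and Npas2.

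The same 3 animals carried transcripts of hepatocyte secretory genes. Alb, the gene of serum albumin, read 8.94, 9.45, 8.58 and 8.17 at 8 weeks and 15.43, 9.35, 12.86 and 13.39 at 16 weeks (3.97 ± 0.89, adjusted p = 0.211). Ahsg, which codes for fetuin-A, read 5.89, 5.65, 6.10 and 5.71 against 11.46, 5.87, 8.20 and 8.68. Cps1, the first enzyme of the urea cycle, read 4.87, 4.85, 4.97 and 4.86 against 6.99, 4.84, 5.93 and 6.41. In these genes replicate 1 was the highest, replicates 3 and 4 were between, and replicate 2 was at the 8-week level. The transferrin gene Trf was the exception at the low end: it had 7.46, 7.25, 7.38 and 7.53 against 11.42, 7.91, 9.60 and 9.63, with replicate 2 also above the younger mice (2.23 ± 0.47, adjusted p = 0.211). Fgg, the fibrinogen gamma chain, did not overlap either, though replicate 2 at 5.41 was close to the highest 8-week array at 5.37.

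A list of 22 liver genes, drawn up after these values were seen, had 18 members tested. All 18 differences were above 0, from 0.12 for Apoc3 to 3.97 for Alb, with a median of 0.93; 14 were higher at an unadjusted p under 0.05, where 3.85% of all genes were, and none passed the adjusted test. The list mean was 5.96, 5.91, 5.84 and 5.73 in the 8-week arrays and 8.36, 5.86, 6.96 and 7.12 in the 16-week arrays, and it stayed between 5.82 and 6.06 at 4 weeks and between 5.80 and 5.94 at 24 weeks. Without 16-week replicate 2, 9 members passed as higher, against 0.237% of all genes. Whether these transcripts came from other tissue or from kidney cells was not tested. Apob is also made by hepatocytes. In 16-week replicate 2 Apob read 10.95 and Alb 9.35, and at 24 weeks they averaged 11.84 and 9.56.

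16-week replicate 2 also stood apart in the signal of cell type markers. Its podocyte list mean was 11.78, against 10.01 to 10.59 in the other 16-week arrays and 10.15 to 10.91 at 8 weeks. Its glomerular endothelial mean was 12.20 against 11.02 to 11.81 in the other 7 arrays, and its distal nephron mean 10.73 against 11.91 to 12.41. Nphs1 was 12.26 in this array and 9.83, 10.64 and 10.46 in the other 16-week arrays, and Podxl 17.11 against 15.43, 16.00 and 15.71. The array therefore held more podocyte and endothelial signal and less distal tubule signal than the others of its age.

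No podocyte, endothelial or mesangial gene passed. Of 27 podocyte genes 21 had a difference above 0, with a median of 0.24. Without 16-week replicate 2 the median was -0.09 and 1 member, Tdrd5, passed as lower (-1.72, adjusted p = 0.0185), where 0.141% of all genes did. Tcf21, a transcription factor of podocytes and stroma, read 8.80, 9.03, 8.30 and 9.42 at 8 weeks and 9.24, 10.53, 10.39 and 9.50 at 16 weeks (1.02 ± 0.31, adjusted p = 0.417). Of 19 endothelial genes 15 were above 0 with a median of 0.18, which was -0.02 without that array. Of 14 mesangial and smooth muscle genes 11 were above 0, and the median moved in the same way from 0.17 to -0.02. Among 12 parietal epithelial genes 8 were below 0, with Pax8 at means of 10.79 and 10.10 and Cldn1 at 10.34 and 9.58 (adjusted p = 0.347 and 0.50).

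The distal nephron list showed the reverse. Of 22 genes 21 had a difference below 0 and the median was -0.45, but without 16-week replicate 2 it was 0.03. The cotransporter gene Slc12a3 read 16.88, 17.03, 16.85 and 17.05 at 8 weeks and 16.42, 15.71, 16.27 and 16.85 at 16 weeks. Kcnj1, the potassium channel ROMK, read 13.67, 13.87, 13.32 and 13.94 against 12.59, 12.93, 12.35 and 13.14, and the magnesium channel gene Trpm6 read 10.26, 10.52, 10.19 and 10.18 against 9.40, 9.02, 9.60 and 10.04. Slc12a3, Kcnj1 and Trpm6 each had non-overlapping arrays, lower at 16 weeks as in 1.86% of all genes, and none passed (adjusted p = 0.751, 0.688 and 0.514). S100g, a calcium-binding protein of the distal tubule, had means of 15.49 and 14.32 with no overlap (-1.17 ± 0.30, adjusted p = 0.309). With the distal nephron list mean of each array as a covariate, the median difference of the list was 0.12. That covariate is made of the same genes, so a move toward 0 is built in and says nothing more about the list.

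**Figure D3:**
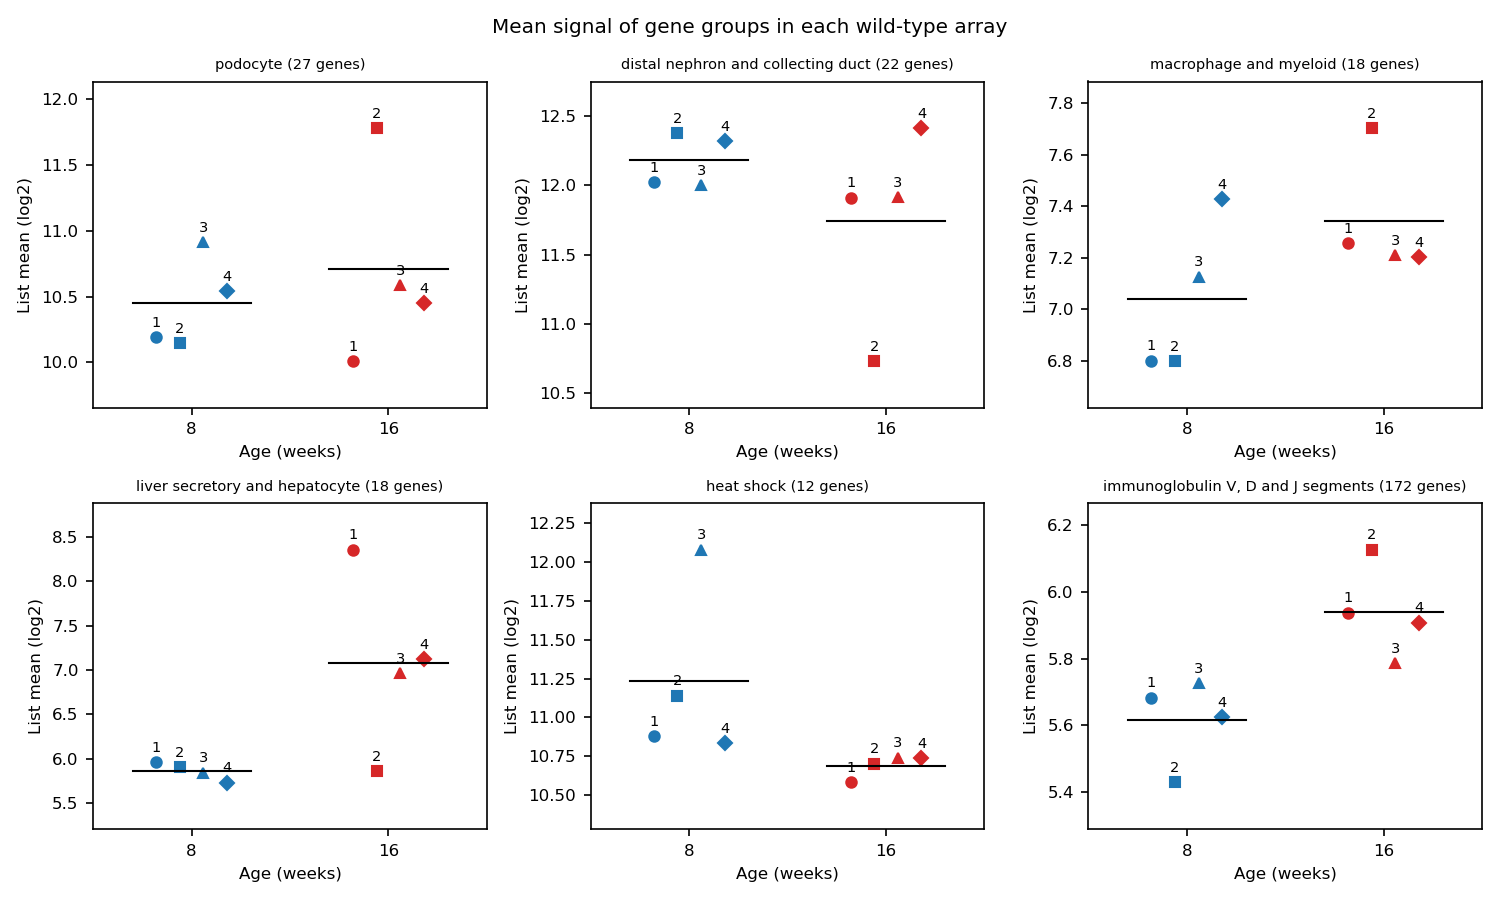
Mean signal (log2) of 6 gene groups in each of the 8 arrays, by age in weeks; blue is 8 weeks and red 16 weeks, numbers are the replicates, and black lines the means of 4 arrays. 16-week replicate 2 is the highest point for podocyte and macrophage genes and the lowest for distal nephron genes, 16-week replicates 1, 3 and 4 are high for liver genes, and 8-week replicate 3 is high for heat shock genes.

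Myeloid genes were mostly higher at 16 weeks, none past the threshold. Of 18 tested, 15 had a difference above 0 (48.7% of all genes did), 7 were higher at an unadjusted p under 0.05 (3.85% of all genes), and in 4 the 16-week arrays lay above all 8-week arrays (1.79% of all genes). Csf1r, the receptor for macrophage colony-stimulating factor, read 7.52, 7.37, 7.29 and 7.72 at 8 weeks and 7.76, 7.94, 8.09 and 7.79 at 16 weeks (0.42 ± 0.12, adjusted p = 0.398). Lyz2, the lysozyme gene of macrophages and neutrophils, read 7.07, 6.83, 8.43 and 8.44 against 8.54, 11.32, 9.08 and 8.78 (1.74 ± 0.57, adjusted p = 0.477). The pan-leukocyte gene Ptprc averaged 6.46 and 7.33 with overlap, and the macrophage gene Adgre1 was 5.63 to 6.10 and 5.73 to 5.96. The list mean was 7.70 in 16-week replicate 2 and 7.20 to 7.25 in the others of that age, so part of the list difference sat in that array: the median of 0.23 was 0.14 without it.

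Other immune groups gave small differences. All 20 interferon response genes had a difference above 0, with a median of 0.17 that was 0.03 without 16-week replicate 2. Of 13 complement genes 12 were above 0 (median 0.09, and 0.11 without 16-week replicate 2), among them C4b with means of 6.46 and 7.22. Of 18 cytokine and adhesion genes 15 were above 0 (median 0.08, and 0.03 without 16-week replicate 2). Among them was Vcam1 with means of 7.80 and 8.64 (0.84 ± 0.22, adjusted p = 0.309). Of 10 lymphocyte genes 9 were above 0 with a median of 0.20, which was 0.06 without that array. None of these genes passed.

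Immunoglobulin V and J segments, grouped after the values were seen, leaned to the higher side at 16 weeks. Of 172 tested, 143 had a difference above 0, and 62 were higher and 0 lower at an unadjusted p under 0.05 by limma (3.85% and 3.38% of all genes). In 42 the 16-week arrays lay above all 8-week arrays and in 0 below them (1.79% and 1.86% of all genes). None passed the adjusted test, and the median was 0.29. The list mean was 5.68, 5.43, 5.73 and 5.62 at 8 weeks and 5.94, 6.13, 5.79 and 5.91 at 16 weeks, while the 4 and 24 week means were 5.45 and 6.06, so the means ordered by age. Jchain, the joining chain of secreted IgA and IgM, read 5.54, 5.60, 5.36 and 5.41 against 6.10, 6.24, 5.92 and 6.14 (0.62 ± 0.18, adjusted p = 0.383). All of these levels were close to the intron control medians of 6.04 to 6.18, and V segments share sequence, so single segments are uncertain and their probe sets are not independent.

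Most heat shock genes had lower means at 16 weeks, and 8-week replicate 3 was the extreme array. Hspa1a, the inducible HSP70, read 7.69, 8.40, 13.98 and 7.53 at 8 weeks and 6.93, 6.14, 6.85 and 7.38 at 16 weeks (-2.57 ± 1.24, adjusted p = 0.712). Hsp90aa1 read 15.00, 15.30, 15.67 and 14.82 against 14.28, 14.71, 14.24 and 14.42, and Hsph1 read 12.82, 13.23, 14.34 and 12.61 against 12.26, 12.12, 12.13 and 12.41. In each gene 8-week replicate 3 was the highest of the 8 arrays. The ages did not overlap in these genes, with 16 weeks lower, as in 1.86% of all genes. Hsp90aa1 had a difference of -0.79 ± 0.22 and Hsph1 one of -1.02 ± 0.38 (adjusted p = 0.362 and 0.533). Of 12 list genes 10 were below 0, where 12355 of all 24099 genes were, and none passed. The median was -0.48, and -0.49 without 16-week replicate 2.

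Matrix and growth factor genes gave few separate arrays. Of 26 interstitial matrix genes 23 were above 0, among them Fn1 with means of 9.52 and 10.13 (adjusted p = 0.563). Their median was 0.15, and 0.14 without 16-week replicate 2. Of 19 basement membrane genes 13 were above 0 with a median of 0.13. Col4a1 averaged 9.43 and 9.28 and Col4a3 11.84 and 11.57 (adjusted p = 0.973 and 0.942). The basement membrane median was 0.03 without 16-week replicate 2, and Col4a3, a collagen IV chain of the mature glomerular basement membrane, then passed as lower (-0.63, adjusted p = 0.0168). In the insulin and IGF list, Igf1 read 6.32, 6.66, 6.71 and 6.65 at 8 weeks and 7.48, 6.86, 7.08 and 7.02 at 16 weeks (0.53 ± 0.19, adjusted p = 0.504). Igf2 averaged 5.60 and 6.01, also with no overlap, but both means lay below the intron control medians of 6.04 to 6.18. Igfbp3, the main carrier of IGFs in plasma, read 10.31, 10.45, 10.54 and 10.66 against 11.53, 10.39, 11.65 and 11.94, so that replicate 2 again stood with the younger mice (adjusted p = 0.324, and 0.00038 without it). Ace, angiotensin-converting enzyme, read 8.46, 8.69, 8.38 and 8.56 against 9.32, 9.19, 10.18 and 9.33 (0.98 ± 0.22, adjusted p = 0.211).

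Metabolic lists had medians between -0.13 and 0.10 and no gene past the threshold. Of 20 fatty acid oxidation genes 14 were below 0, among them Acot1 with means of 10.79 and 9.33 and Pdk4, which restrains glucose oxidation, with 9.15 and 8.68 (adjusted p = 0.370 and 0.394). Of 21 lipid and sterol synthesis genes 14 were above 0, and Scd1, the stearoyl-CoA desaturase, had no overlap with 11.12, 11.53, 11.16 and 10.63 against 11.88, 11.91, 12.04 and 12.63 (1.00 ± 0.33, adjusted p = 0.468). Of 21 oxidative phosphorylation genes 16 were below 0, and of 24 cell cycle genes 16. The NRF2 target, glycolysis, and organic ion transport lists had medians of -0.07, -0.09 and 0.10. The medians of the metabolic lists lay between -0.07 and 0.14 without 16-week replicate 2. The kidney injury list had Cdkn1a as the 1 gene that passed, and Havcr1, which codes for the tubule injury marker KIM-1, averaged 7.41 and 7.71 with wide overlap (adjusted p = 0.979).

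The remaining lists had no gene past the threshold. Adrenal cortex genes, markers of tissue next to the kidney, had 8 of 10 differences below 0 and a median of -0.25, and their list mean was 6.58 in 8-week replicate 2 and 5.68 to 5.88 in the other 7 arrays. Medians were -0.13 over 20 unfolded protein response genes, -0.01 over 21 immediate early genes, -0.01 over 9 adipocyte genes and -0.03 over the 2 erythroid genes tested. In the vitamin D and calcium list (median -0.08), the hormone-degrading enzyme gene Cyp24a1 read 10.16, 9.13, 7.04 and 8.35 at 8 weeks and 8.82, 10.26, 10.21 and 10.21 at 16 weeks, and Cyp27b1, which makes the active hormone, averaged 8.44 and 7.63. Both overlapped between the ages (adjusted p = 0.834 and 0.859). The vitamin D receptor gene Vdr averaged 13.35 and 12.88 (adjusted p = 0.486), and Fgfr1, a receptor for FGF23, 9.66 and 9.99 with no overlap (adjusted p = 0.359). Kap, the kidney androgen-regulated protein gene, read 16.76, 17.31, 17.14 and 17.51 against 18.86, 16.38, 18.37 and 17.64, with replicate 2 the lowest of all 8 arrays (adjusted p = 0.912).

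Leaving out 16-week replicate 2 gave 91 genes at an adjusted p of 0.05, 57 higher and 34 lower (0.378% of genes), and all 5 genes of the full comparison were among them. Genes in which that array went against the others gain most from its removal, so the 91 are a description. The clock list (19 genes tested) held 10 of the 91, and the liver list (18 tested) held 9. Small nucleolar RNAs (60 tested) held 4 and the proximal tubule list (23 tested) 3, and 58 were in none of the lists. The liver and small nucleolar RNA groups were formed after the values were seen. Leaving aside clock and liver genes and the 5 of the full comparison, those with the smallest adjusted p included Ndrg1 (-1.71, adjusted p = 7.8e-06), Igfbp3 (1.21), the tetraspanin gene Tspan4 (1.07), Rhobtb1 (-1.65), Ypel2 (-1.22), Dtx4 (-1.69) and the lactate transporter gene Slc16a1 (-2.79, adjusted p = 0.0021). Nat8f6, Nat8f7 and Nat8f1 of the N-acetyltransferase 8 family were higher by 1.87, 1.83 and 1.01, and they are similar copies. The amino acid transporter gene Slc6a19 had 13.53, 14.12 and 14.18 in the 3 remaining older animals and 11.95 in replicate 2, against 12.19 to 12.93 at 8 weeks.

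The change from 8 to 16 weeks was set against that in ob/ob mice, 4 arrays at each age, which shared no array with the wild type. No gene passed the test of the difference between the 2 changes (0% of 24099) in limma's fit of all 30 arrays, with 1230 genes at an unadjusted p under 0.05 (5.1%). Apob differed between the ages by 2.54 in wild type and by 2.57 in ob/ob (difference of the changes 0.03 ± 0.58, adjusted p = 1.00). For Cdkn1a the ob/ob means were 11.79 and 11.81, and the difference of the changes was 2.99 ± 0.78 (adjusted p = 0.687). For Zfp691 it was 1.19 ± 0.24 (adjusted p = 0.316), with ob/ob means of 8.75 and 8.81. For Cubn it was -1.15 ± 0.29 (adjusted p = 0.687), with ob/ob means of 15.25 and 14.93. Akr1c20 had the smallest p, with ob/ob means of 7.15 and 6.85 (-1.82 ± 0.35, adjusted p = 0.298). Without 16-week replicate 2, 24 of 24099 genes passed this test. Of these, 19 were also among the 91 above, including Akr1c20, Ndrg1, Nr1d1, Nr1d2, Dbp, Arntl, Alb and Trf. Both tests hold the same wild-type change with the same array left out. Their overlap is therefore partly built in and is not separate support.

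**Figure D4:**
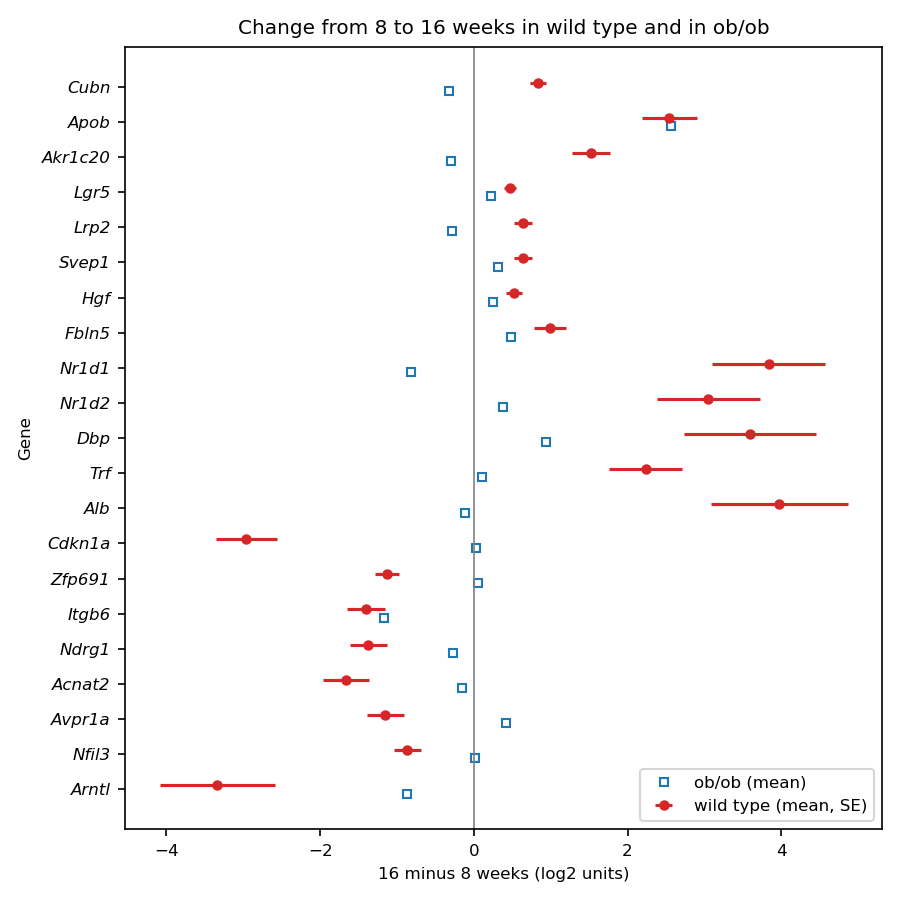
Change from 8 to 16 weeks (log2 units) in wild type (red points with standard error from the fit) and in ob/ob (open blue squares, means only) for 21 genes named in the text. Apob and Itgb6 have changes of like size in both, and for most other genes the ob/ob change is nearer to 0, with no difference past an adjusted p of 0.05 with all arrays.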

How the data were processed

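RNA of glomeruli from 30 mice was measured on 1 Affymetrix array each. The authors deposited log2 values made by RMA in Affymetrix Expression Console 1.4, per the submitters' processing notes with no further settings named there. They were used as deposited. Probe sets were named from the platform annotation: 30604 had 1 symbol, 2146 several and 33206 clusters none. The probe set with the highest mean stood for a gene, and a gene was tested if 3 or more arrays reached 5 on the log2 scale. The 15 wild-type arrays were fitted with limma 3.58.1 in R 4.3.3 (1 mean per age, residual df 11), with Benjamini-Hochberg adjustment over 24099 genes. The test of the difference between genotypes used all 30 arrays. Members and lists were chosen with earlier results of these data known. Lists are described by counts and medians without a test. Named genes are those past the threshold, the 10 smallest p in each direction, list members with the largest or least uncertain differences, 24 genes fixed by name, and the 10 smallest p of the genotype difference; those named from the comparison without 16-week replicate 2, and some list members, were chosen after their values were seen. In data simulated for this comparison over 24099 genes, the fit found 22 of 50 genes changed by 0.5 log2 units, 41 of 50 changed by 1, and all 50 changed by 2 or by 3, and made 6 false calls. The simulated noise was normal and independent between genes and arrays, and changed genes of all sizes were planted together. No simulated array deviated in many genes at once. Among the real arrays, 8-week replicate 3 lay apart from the others of its age in 574 genes. 16-week replicate 1 did so in 487 genes and 16-week replicate 2 in 455. The recovery therefore checks the fit and does not give the power in the real arrays. Alternatives were other filters, arrays in the fit, loess, array weights, empirical Bayes settings, probe set means, covariates, a replicate block and each array left out.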

Additional observations from a re-analysis of the deposited data

Results flagged for a closer look

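Each named gene and list mean was checked for a single array that lay apart from the other 3 of its age. Of 218 groups of 4 arrays 23 were flagged, and chance flags about 5% of groups. Some of these genes were named after their values were seen, and clock genes move together, so the flagged share is not a test. Over all genes tested, 8-week replicate 3 lay apart in 2.38%, 16-week replicate 1 in 2.02% and 16-week replicate 2 in 1.89%. In 8-week replicate 3 the heat shock gene Hspa1a stood at 13.98 (the other 3 at 7.53 to 8.40), Nr1d1 at 8.18, Clock at 13.32, Atp8b4 at 5.63 and Cps1 at 4.97. In 8-week replicate 1, Igf1 was low at 6.32.

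16-week replicate 2 held 13 of the flags. Its clock genes lay apart from the other 16-week arrays: Arntl at 11.23, Npas2 at 10.83 and Clock at 13.52 on the high side, and Nr1d1 at 7.92, Nr1d2 at 9.02, Per3 at 5.87 and Tef at 7.44 on the low side. The basement membrane genes Col4a1 (9.92) and Col4a3 (12.67) were high in it. So were the leukocyte genes Itgam (6.07) and Ptprc (8.29) and the macrophage list mean (7.70), whereas the interferon response gene Ifit3 (8.70) was low. In 16-week replicate 1, Cyp24a1 was low at 8.82 and Pax8 at 9.78, and Igf2 was high at 6.24. In 16-week replicate 3, Ace was high at 10.18.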

How the results depend on the processing

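The count of 5 genes past the threshold (3 higher, 2 lower) was small and moved with most settings. It was 8 with all 30 arrays (4 lower), 8 with a filter at 6 or at 7 (6 higher), 3 with trend and robust settings (1 higher), 5 higher with the control separation covariate, 22 with the distal nephron covariate (13 higher, 9 lower), 0 with the 8 arrays alone and 1185 with array quality weights (662 higher, 523 lower). Leaving out 1 array gave 0 to 91 genes (0 to 57 higher, 0 to 34 lower). Settings chosen after seeing the data gave 70 with the podocyte covariate (53 higher, 17 lower) and 98 without 16-week replicate 2 and 8-week replicate 3 together (42 higher, 56 lower). The cause was not tested.

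Same-numbered arrays of both ages did not deviate together (correlations of -0.58 to 0.03), and unlike-numbered arrays ran from -0.28 to 0.59. With so few arrays, and single arrays far apart, this cannot exclude that the numbers pair animals. With the replicate block in the 8 arrays no gene passed, and 1159 had an unadjusted p under 0.05 by limma.

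The test between genotypes gave 160 genes with array quality weights and 0 to 24 when 1 array was left out. Differences that changed sign had no call: Nphs1 (-0.078 with the podocyte covariate, -0.21 to 0.60 when 1 array was left out), Col4a1 (-0.37 to 0.027 when 1 array was left out), Havcr1 (-0.10 with array quality weights) and Per2 (0.30 with array quality weights, 0.32 with the distal nephron covariate, 0.014 with the podocyte covariate, -0.55 to 0.21 when 1 array was left out). Medians moved for the distal nephron list (0.13 with array quality weights, 0.12 with its own covariate, where a move toward 0 is built in). They also moved for the glucocorticoid list (-0.69 with a filter at 7) and the complement list (0.36 and 0.49 with a filter at 6 and 7, which leaves fewer genes).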

Other observations

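Outside the 8 arrays compared, the clock pattern of 16-week replicates 1, 3 and 4 was met most fully in 1 other array. In ob/ob 16-week replicate 2, Arntl read 7.20, Npas2 7.07, Nr1d1 10.54 and Dbp 9.99. In the other 3 ob/ob arrays of that age Arntl was 9.92, 10.88 and 10.62 and Dbp 7.63, 6.13 and 6.22. In the wild-type arrays of 4 and 24 weeks Arntl stayed between 10.38 and 11.18 and Dbp between 6.30 and 7.29, although Npas2 was 8.49 in 24-week replicate 4. In ob/ob 8-week replicate 3 Nr1d1 was 10.79, while Arntl was 9.81 and Dbp 7.26. Alb was 10.17 in ob/ob 16-week replicate 2 and 8.39 to 10.51 over the ob/ob arrays of that age, so there the liver transcript did not stand out beside the clock genes.

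Hspa1a, which was 13.98 in 8-week replicate 3, was also high in 1 of the 4-week arrays, at 11.31 in replicate 2 against 6.42 and 7.01 in the others of that age.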
